A study of Mus musculus with 27 samples.

Results

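Interferon receptor, STAT and IRF genes were followed here across the nuclei of the mouse hippocampus. The 9 members, of the 31053 genes listed in the files, were chosen by symbol: Ifnar1, Ifnar2, Jak1, Stat2, Irf9, Irf1, Irf7, Irf8 and Usp18. Their transcripts were counted as UMIs (individual captured RNA molecules) by droplet-based single-nucleus RNA-seq in 27 libraries, 1 per mouse, from mice of 8 to 9 months (9 to 10 months where the sources used here speak of RNA-seq in general). Of these mice 18 carried the P301S tau transgene and 9 did not. The carriers formed the groups P301S Cgas+/+, P301S Cgas+/- and P301S Cgas-/-, of 6 mice each with 3 of either sex. The others formed the groups Cgas+/+ (n = 5, of which 2 were female), Cgas+/- (n = 2) and Cgas-/- (n = 2), and both of the last were male only. P301S is human tau with a dementia-linked mutation under the mouse Prnp promoter, and Cgas, deleted in the whole animal in Cgas-/- mice, encodes a sensor of cytosolic DNA. The files held 241938 barcodes and 46091490 to 79484316 UMIs per library, and 204852 nuclei were kept after filtering and removal of likely doublets. Clusters of nuclei were named from markers as 15 classes such as microglia-like nuclei, and 11687 nuclei (5.71%) stayed unnamed. A level is the UMIs of a gene per 1000000 UMIs of a class in a library (CPM). In such sums, fewer nuclei of a kind and less RNA per nucleus cannot be told apart.

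Cgas itself (listed as Mb21d1) ranged from 40.1 to 58.5 CPM (median 52.6) in microglia-like nuclei of the 6 libraries labelled P301S Cgas-/-, and from 26.4 to 56.4 CPM (median 36.6) in those labelled P301S Cgas+/+. The 2 libraries labelled Cgas-/- held 21.6 and 33.1 CPM, against 32.2 to 39.0 CPM in the 5 labelled Cgas+/+. Its level did not follow the labels, and a UMI count does not tell whether the captured RNA came from an intact allele. Every difference between Cgas genotypes below rests on the labels, and each group stands for the libraries labelled with that genotype.

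Type I interferons bind a receptor made of the IFNAR1 and IFNAR2 chains, and the kinases JAK1 and TYK2 on its inner side phosphorylate STAT proteins, STAT2 among them. STAT2 and IRF9 are subunits of ISGF3, a transcription factor complex that binds the interferon-stimulated response element in front of its target genes. IRF1, IRF7 and IRF8 are transcription factors of the same family as IRF9, with IRF7 a main driver of interferon-alpha genes and IRF8 a factor that microglia need for their development. USP18 is itself a target gene and holds the pathway back, by displacing JAK1 from IFNAR2 and by removing the ubiquitin-like protein ISG15 from other proteins.

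The promoters of the members were searched for both motifs through which STAT proteins bind DNA. Windows of the 250 bases before each RefSeq gene start (GRCm38.p6) were read on both strands. The interferon-stimulated response element was written as GAAA and GAAA with any 2 bases between them, or TTTC and TTTC on the other strand, and was present in 3.46% of 27025 genes (2.98% of 32851 windows) and in 8 of the 15 ISGF3 target genes with a window. The gamma-activated site, bound by STAT dimers, was written TTCNNNGAA and was present in 8.13% of the genes (7.02% of the windows) and in 3 of the same 15 genes. Of the 8 members with a window, Stat2 alone had the first motif, and Ifnar2, Irf1 and Irf8 had the second. Ifnar1, Jak1, Irf7 and Irf9 had neither in this window, and Usp18 was not analysed here. The stretches around 3 of these motifs are shown, with the motif in capitals, because their genes differ in the results that follow. They lie at chr10:128270248-128270325 (Stat2, plus strand), chr11:53769884-53769972 (Irf1, plus strand) and chr16:91372533-91372617 (Ifnar2, plus strand).
Stat2: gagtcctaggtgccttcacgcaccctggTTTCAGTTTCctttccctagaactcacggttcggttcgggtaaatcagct
Irf1: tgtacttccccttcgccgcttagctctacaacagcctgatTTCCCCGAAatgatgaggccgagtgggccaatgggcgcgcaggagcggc
Ifnar2: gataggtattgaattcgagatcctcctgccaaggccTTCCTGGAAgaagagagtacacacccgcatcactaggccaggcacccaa
The Stat2 motif starts 222 bases, the Irf1 motif 90 bases and the Ifnar2 motif 214 bases before the RefSeq start. A match of these letters is a description of the sequence and not of binding.

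Irf8 (chr8:120736358-120756694, plus strand, GRCm38) had 0 UMIs in every class and library, where 3 UMIs over the 27 libraries would be 0.152 CPM in microglia-like nuclei. The gene lies wholly within Gm20388 (chr8:119910841-124345722), a gene model on the same strand. All 59 genes of the files that are nested in Gm20388 on its strand were at 0 UMIs, 36 of 36 protein-coding ones included. None of the 49 nested genes on the other strand was at 0. Gm20388 itself averaged 533 ± 142 CPM (SD, n = 27) in microglia-like nuclei, with group means between 502 and 603 CPM. Gm20388 spans many genes, and whether its counts hold UMIs of the nested genes was not tested, so they cannot stand for Irf8. The level of Irf8 is unknown here, and the results concern the other 8 members.

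The receptor chains and JAK1 were read across classes first. Ifnar1 (chr16:91485238-91507441, plus strand) was highest in endothelial cell-like nuclei, at a mean of 281 CPM over the 23 libraries with at least 10 such nuclei, and reached 64.1 CPM in microglia-like nuclei. Endothelial cell-like nuclei were above microglia-like nuclei in 23 of 23 libraries, by 2.07 ± 0.71 (SD) on the log2(CPM + 1) scale. Ifnar2 (chr16:91372783-91405589, plus strand) did not separate these classes, at 164 CPM in both, and was next at 53.6 CPM in pericyte or smooth muscle cell-like and 33.0 CPM in oligodendrocyte progenitor-like nuclei. Ifnar2 shares 13869 bases with Gm21970 on the same strand, which took 58 UMIs in all. Whether UMIs of the shared stretch are missing from the Ifnar2 count was not tested. Jak1 (chr4:101152367-101265282, minus strand) averaged 271 CPM in microglia-like and 248 CPM in pericyte or smooth muscle cell-like nuclei, a difference within its spread over libraries. It was lower in astrocyte-like nuclei, at 150 CPM, and lowest of the 7 tested classes in oligodendrocyte-like nuclei, at 55.1 CPM. All 3 genes were thus detected in glia, vessels and neurons alike, with Ifnar1 and Ifnar2 in excitatory neuron-like nuclei at 17.2 and 12.1 CPM without the transgene.

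By mean, the ISGF3 subunits, the other detected IRF genes and Usp18 were highest in endothelial cell-like nuclei, followed by microglia-like nuclei. For none of these genes did endothelial cell-like and microglia-like nuclei differ beyond the spread over libraries. Stat2 (chr10:128270559-128292849, plus strand) averaged 113 CPM in endothelial cell-like, 81.8 CPM in microglia-like and 64.1 CPM in astrocyte-like nuclei, and none of these neighbours differed beyond the spread. Irf9 (chr14:55603571-55610030, plus strand) averaged 39.1 CPM in endothelial cell-like and 28.5 CPM in microglia-like nuclei, and its level in microglia-like nuclei was above that in astrocyte-like nuclei (15.7 CPM) in 27 of 27 libraries. On the same strand Irf9 shares 123 bases with Rnf31, which took 14321 UMIs in all. Irf1 (chr11:53770014-53778374, plus strand) averaged 40.2 CPM in endothelial cell-like and 23.95 CPM in microglia-like nuclei, and here too microglia-like nuclei were above astrocyte-like nuclei (9.66 CPM) in 27 of 27 libraries. Irf7 (chr7:141262706-141266481, minus strand) was the rarest detected member, at 9.89 CPM in endothelial cell-like and 4.39 CPM in microglia-like nuclei. Usp18 (chr6:121245906-121270917, plus strand) averaged 34.4 CPM in endothelial cell-like and 24.98 CPM in microglia-like nuclei, and microglia-like nuclei were above oligodendrocyte progenitor-like nuclei (7.80 CPM) in 24 of 27 libraries. The lincRNA Gm44148 overlaps 15715 bases of Usp18 on the other strand and took 4375 UMIs. Elsewhere, the genes nested in Gm20388 were at 0 on its own strand and not on the other. Whether RNA of Gm44148 was counted as Usp18 was not tested. Per kilobase of gene length, the levels in microglia-like nuclei ran from 5.0 ± 1.63 CPM per kb for Ifnar2 (SD, n = 27) and 4.41 ± 1.93 for Irf9 to 1.16 ± 1.40 for Irf7 and 0.999 ± 1.09 for Usp18. The spread between libraries was as large as the mean for Usp18 and Irf7, and small for Jak1 (2.40 ± 0.28 CPM per kb).

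**Figure D1:**
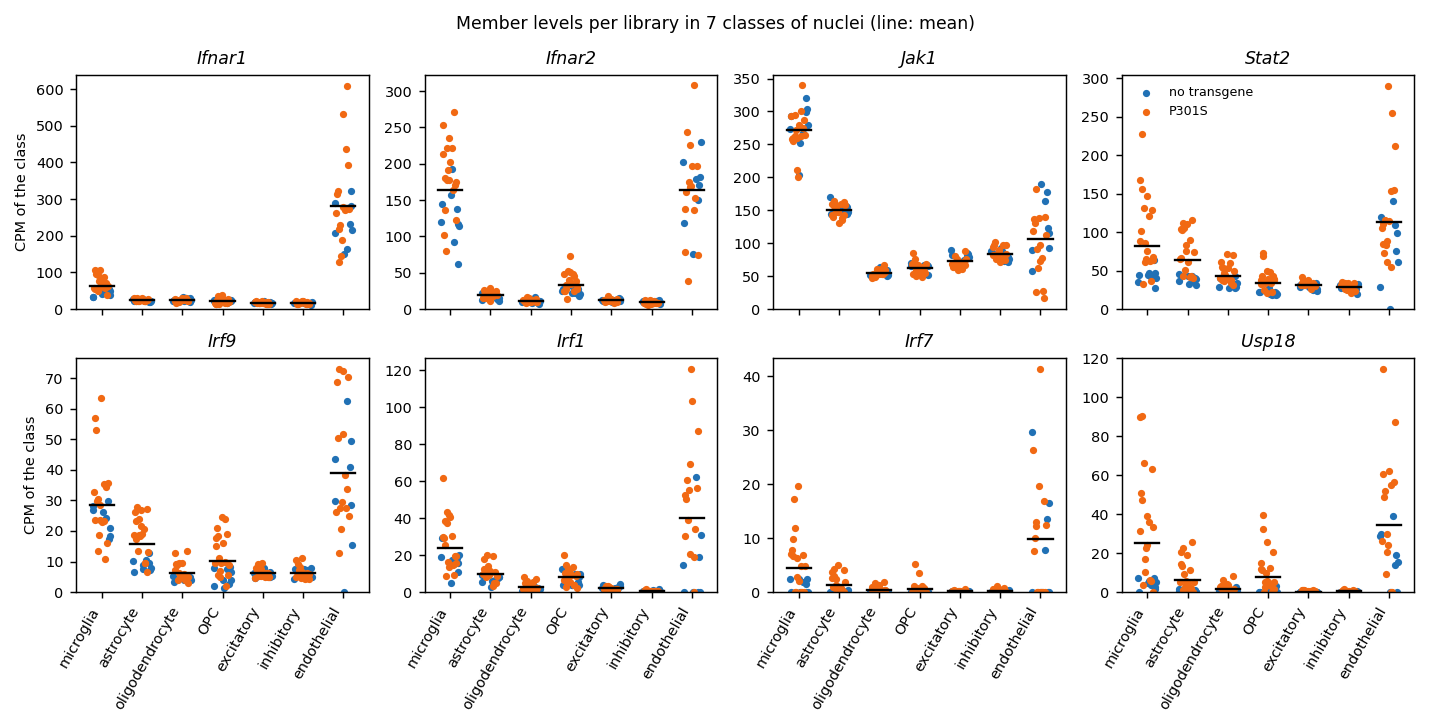
Level of each detected member in CPM (vertical axis, linear, a scale of its own in each panel) in 7 classes of nuclei, with 1 point per library, orange for P301S and blue for no transgene, and a line at the mean over libraries. Ifnar1 stood highest in endothelial cell-like nuclei (mean 281 CPM) and Jak1 in microglia-like nuclei (271 CPM), and in microglia-like nuclei 14 of 18 orange points lay above all blue ones for Stat2 and 14 for Usp18, 12 for Irf7 and 8 for Irf9.

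The first comparison asked how the members differ with tauopathy, over all 18 P301S libraries against the 9 without the transgene, with sex and Cgas genotype as terms of the fit. In microglia-like nuclei 4 of the 7 tested members were higher in P301S (Usp18, Stat2, Ifnar1 and Irf1), beside 14.9% of 8882 genes called in either direction and 8.89% called higher. The median log2 fold change of the 7 tested members was 0.69, against -0.01 over all genes. In astrocyte-like nuclei 5 of 8 members were higher (Irf7, Usp18, Irf9, Stat2 and Irf1), beside 4.19% of 13103 genes called and 3.32% called higher. The median over these 8 tested members was 0.91, against 0.00 over all genes. Oligodendrocyte progenitor-like nuclei had 3 of 7 members higher (Usp18, Irf9 and Stat2, with 0.935% of 9093 genes called), and excitatory neuron-like nuclei had 1 of 7 (Usp18, with 0.0647% of 17006 genes called). In excitatory neuron-like nuclei 3 members had an unadjusted edgeR p under 0.05, as had 1481 of the 17006 genes. No member was called lower in any of the 7 classes tested. Without the transgene, Usp18 in each class where it was called and Irf7 in astrocyte-like nuclei were too low to pass the filter on low counts. The same held for Irf9 in oligodendrocyte progenitor-like nuclei. These genes were tested there through the P301S libraries alone. Their calls and their places in these counts thus depended on the group where they were high. Adjusted p-values are from edgeR's quasi-likelihood test, with Benjamini-Hochberg adjustment over all genes of a class.

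Usp18 had the largest log2 fold change of the tested members in each class where a member passed, except in astrocyte-like nuclei, where that of Irf7 was larger. Without the transgene it lay between 0 and 7.46 CPM in microglia-like nuclei (median 4.69, n = 9), from 17 UMIs in all. In P301S libraries it lay between 0 and 90.4 CPM (median 32.3, n = 18), from 629 UMIs. In 14 of 18 P301S libraries it exceeded every library without the transgene, and the ranges overlapped through the other 4 (P301S Cgas+/+ replicate 2 at 3.39 CPM, P301S Cgas+/- replicates 5 and 6 at 5.42 and 0 CPM, and P301S Cgas-/- replicate 6 at 6.39 CPM). The log2 fold change was 3.49 ± 0.64 (SE, edgeR adjusted p = 0.00125). In astrocyte-like nuclei Usp18 lay between 0 and 1.88 CPM without the transgene and between 0 and 25.7 CPM (median 5.43) with it, a log2 fold change of 3.88 ± 0.76 (adjusted p = 0.00707), and 15 of 18 libraries exceeded all 9 others. The log2 fold change was 4.28 ± 0.92 in oligodendrocyte progenitor-like nuclei (adjusted p = 0.0234), where 13 of 18 libraries stood above the rest. That call was lost in males alone (edgeR adjusted p = 0.0524) and without any 1 of P301S Cgas+/+ replicate 1, Cgas+/+ replicate 5, Cgas+/- replicate 1 and Cgas-/- replicate 2, and the log2 fold change ran from 3.895 to 5.11 over all libraries left out in turn. In excitatory neuron-like nuclei the level was far lower, at 0 to 0.105 CPM without the transgene and 0 to 1.20 CPM (median 0.313) with it, and the log2 fold change was 3.65 ± 0.71 (adjusted p = 0.0426). This last call was lost when any 1 of 18 of the 27 libraries was left out, without the sex term (edgeR adjusted p = 0.0581), with doublets kept (0.063) and with the software version as a term (0.0645). In oligodendrocyte-like nuclei the log2 fold change of 2.07 ± 0.70 did not pass (adjusted p = 0.18).

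Stat2, the STAT that is particular to ISGF3, lay between 26.96 and 63.4 CPM without the transgene in microglia-like nuclei (median 43.9, n = 9) and between 32.2 and 228 CPM in P301S libraries (median 86.9, n = 18). It exceeded all 9 libraries without the transgene in 14 of 18 P301S libraries, with a log2 fold change of 1.39 ± 0.29 (edgeR adjusted p = 0.00286). In astrocyte-like nuclei the ranges were 31.0 to 45.1 CPM (median 39.5) and 40.7 to 116 CPM (median 74.7), with a log2 fold change of 1.04 ± 0.18 (adjusted p = 0.00597) and 14 of 18 libraries above. In oligodendrocyte progenitor-like nuclei they were 18.2 to 26.9 CPM (median 20.5) and 20.7 to 72.4 CPM (median 38.1), with a log2 fold change of 1.005 ± 0.167 (adjusted p = 0.00103) and 15 of 18 libraries above. The values in oligodendrocyte-like nuclei (0.54 ± 0.14, adjusted p = 0.097) and in excitatory neuron-like nuclei (0.20 ± 0.06, adjusted p = 0.255) did not pass.

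Irf9, the DNA-binding subunit of ISGF3, differed between classes in what passed. In astrocyte-like nuclei it lay between 6.44 and 12.8 CPM without the transgene (median 8.85) and between 6.58 and 28.0 CPM with it (median 18.8), a log2 fold change of 1.07 ± 0.20 (edgeR adjusted p = 0.00597), and 15 of 18 libraries were above all 9 others. In oligodendrocyte progenitor-like nuclei its log2 fold change was 1.38 ± 0.33 (adjusted p = 0.0304), a call that was lost in males alone (adjusted p = 0.0661) and without any 1 of 8 of the 27 libraries. Irf9 reached at most 8.21 CPM there without the transgene. Only the P301S libraries brought it past the filter on low counts, so this call depended on the group where it was high. In microglia-like nuclei, where its level was highest of the 3, the ranges of 17.4 to 29.8 CPM and 10.9 to 63.7 CPM overlapped widely, and the log2 fold change of 0.47 ± 0.24 did not pass (adjusted p = 0.19). Whether the log2 fold change of Irf9 differs between these classes was not tested.

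Of the other transcription factors, Irf7 was too rare to be tested in microglia-like nuclei, where its 9 libraries without the transgene lay between 0 and 2.45 CPM (6 UMIs in all) and the 18 P301S libraries between 0 and 19.6 CPM (median 5.65, 96 UMIs). In astrocyte-like nuclei it lay between 0 and 0.375 CPM (3 UMIs in all) without the transgene and between 0 and 5.06 CPM (median 1.13, 113 UMIs) with it. The log2 fold change there was 4.05 ± 0.75 (edgeR adjusted p = 0.00597), with 15 of 18 P301S libraries above the rest. The lower group held 3 UMIs, so the size is poorly fixed, and it was 2.91 with doublets kept. Only the P301S libraries brought Irf7 past the filter on low counts, so its call depended on the group where it was high. Irf7 fell below the filter on low counts, and was not tested, in males alone and without any 1 of P301S Cgas+/+ replicates 1 and 5, P301S Cgas+/- replicate 2 and P301S Cgas-/- replicates 1 and 3. Irf1 rose by a log2 fold change of 0.83 ± 0.29 in microglia-like nuclei (adjusted p = 0.0498) and of 0.78 ± 0.22 in astrocyte-like nuclei (adjusted p = 0.0404). Both calls were near the threshold and were lost without any 1 of 20 and of 13 of the 27 libraries, respectively, and without the sex term (edgeR adjusted p = 0.0598 and 0.115). That in microglia-like nuclei was lost also with doublets kept (0.0634), with the pathway genes left in the clustering (0.0501) and in males alone (0.149), and that in astrocyte-like nuclei with the software version as a term (0.0705).

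Of the receptor and kinase genes, Ifnar1 alone passed, and in microglia-like nuclei alone of the 7 classes tested. Ifnar1 lay between 32.9 and 59.96 CPM without the transgene in microglia-like nuclei (median 48.5) and between 38.2 and 107 CPM with it (median 70.2), and 11 of 18 P301S libraries were above all 9 others. Its log2 fold change was 0.69 ± 0.17 (edgeR adjusted p = 0.00606) in this class and 0.07 ± 0.08 in astrocyte-like nuclei (adjusted p = 0.694). Ifnar2 did not pass in any class, with 0.39 ± 0.17 in microglia-like nuclei (adjusted p = 0.127) and 0.49 ± 0.18 in oligodendrocyte progenitor-like nuclei (adjusted p = 0.224). Jak1 differed by -0.06 ± 0.09 in microglia-like nuclei (adjusted p = 0.726) and by -0.03 ± 0.05 in astrocyte-like nuclei (adjusted p = 0.79), where both groups lay within 129.9 to 170.8 CPM.

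**Figure D2:**
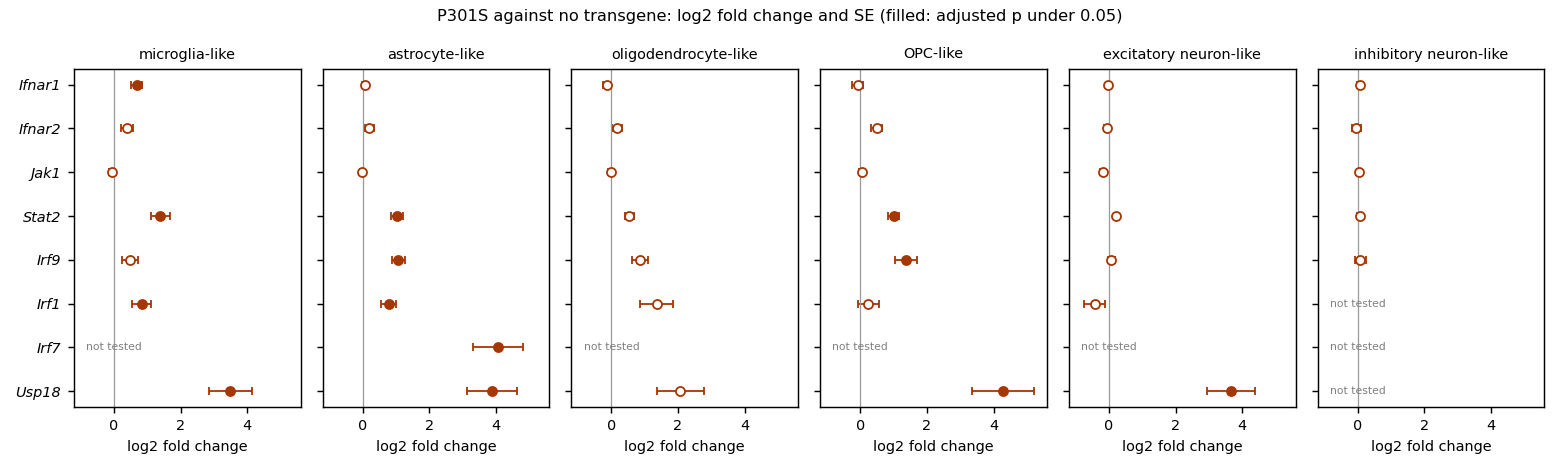
Log2 fold change of each member (horizontal axis) between the 18 P301S libraries and the 9 without the transgene in 6 classes of nuclei, with bars of 1 SE and filled points where the adjusted p was under 0.05. Usp18 lay between 2.07 in oligodendrocyte-like and 4.28 in OPC-like (oligodendrocyte progenitor-like) nuclei, with no point in inhibitory neuron-like nuclei, where it was not tested. In the other 5 classes it was furthest to the right of the members tested except in astrocyte-like nuclei, where Irf7 was at 4.05. Jak1 lay close to 0 in microglia-like and astrocyte-like nuclei and at -0.19 in excitatory neuron-like nuclei.

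No member passed in oligodendrocyte-like nuclei (0.0163% of 12306 genes called by edgeR), where 4 of 7 had an unadjusted p under 0.05 (13.7% of genes) and DESeq2 called 1, Stat2 (1.54% of genes). None of 5 passed in inhibitory neuron-like nuclei (0.0158% of 12660 genes called) and none of 4 in endothelial cell-like nuclei (0% of 2351 genes), with 0 members at an unadjusted p under 0.05 and 0 called by DESeq2 in both. Of all genes, DESeq2 called 3 in the former class and 0 in the latter. Endothelial cell-like nuclei were few, at most 94 per library, and Irf9, Irf1, Irf7 and Usp18 had too few UMIs there to be tested. Levels there were 33.8 ± 19.8 CPM (SD, n = 8) without the transgene against 41.9 ± 20.8 CPM (n = 15) with it for Irf9, 15.8 ± 22.1 against 53.2 ± 32.45 CPM for Irf1, and 18.2 ± 14.0 against 43.0 ± 31.95 CPM for Usp18. The mean of Irf7 was 8.47 CPM (range 0 to 29.8) and 10.6 CPM (range 0 to 41.4). Of the 15 P301S libraries, 8 were above all 8 others for Usp18, 4 for Irf9, 4 for Irf1 and 1 for Irf7, and the groups overlapped for each.

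Technical values moved with the transgene in the same nuclei. The median of the libraries' median UMI counts was 1419 per microglia-like nucleus without the transgene and 1753 with it, and 3098 and 3874 per astrocyte-like nucleus. The summed level of the 12 microglial markers, all detected, was 11130 to 13730 CPM (median 12090) without the transgene and 7554 to 13050 CPM (median 10090) with it in microglia-like nuclei. That of the 10 endothelial markers in microglia-like nuclei was 32.8 to 98.0 CPM (median 51.5) and 9.56 to 265 CPM (median 76.6). The median sum of the 11 oligodendrocyte markers was 347.6 CPM without the transgene and 541.5 CPM with it in microglia-like nuclei, 148.4 and 226.3 CPM in astrocyte-like nuclei, 298.6 and 507.6 CPM in oligodendrocyte progenitor-like nuclei and 207.8 and 219.2 CPM in excitatory neuron-like nuclei. Their part in the results was not tested. The level that free microglial RNA would bring to astrocyte-like nuclei, scaled from the same 12 markers there, was 0.341 CPM for Usp18 and 0.930 CPM for Stat2 in P301S libraries, where 9.21 and 76.9 CPM were found. In excitatory neuron-like nuclei the value for Usp18 was 0.150 CPM, or 0.258 CPM when scaled from Csf1r, P2ry12 and Cx3cr1 alone, against 0.404 CPM found. The software version in the file headers was 3.0.2 in 12 libraries, all male, and 3.1.0 in the other 15. Within the first, Usp18 averaged 3.92 CPM without the transgene (n = 6) and 52.2 CPM with it (n = 6) in microglia-like nuclei, and Stat2 42.8 and 129 CPM. Within the second, they averaged 4.76 (n = 3) and 26.96 CPM (n = 12), and 44.2 and 87.1 CPM.

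The difference in Usp18 was seen in the share of nuclei as well. At 1000 UMIs per microglia-like nucleus, to which each nucleus was thinned at random, 0.286 ± 0.329% of nuclei (SD, n = 9; 8 of 2913 nuclei) had a Usp18 UMI without the transgene and 2.93 ± 2.31% (n = 18; 268 of 7975) with it. Without thinning the shares were 0.505% and 5.39%. The same depth gave 0% and 0.0320% of excitatory neuron-like nuclei, a class that holds little Usp18 (0 of 28237 and 16 of 50252 nuclei). For Stat2 the thinned shares were 3.96 ± 1.03% and 8.78 ± 4.41% of microglia-like nuclei, and 2.88% and 3.42% of excitatory neuron-like nuclei. Of the microglia-like nuclei, 2913 of 3137 and 7975 of 8251 were deep enough to be thinned.

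The other genes of the pathway were read in the same fits. In microglia-like nuclei 14 of 15 tested ISGF3 target genes were higher in P301S, with a median log2 fold change of 1.97, and in astrocyte-like nuclei 14 of 14 (median 2.37). In oligodendrocyte progenitor-like nuclei 6 of 7 were higher (median 2.84), and in excitatory neuron-like nuclei 1 of 15, Oasl2. Of all genes, 14.9%, 4.19%, 0.935% and 0.0647% were called in either direction in these classes, in the same order. The list of target genes was chosen with earlier results of these data known, so a high count in it is not independent evidence. Some target genes, such as Ifi44 and Oas1a in microglia-like nuclei, were too low without the transgene to pass the filter on low counts. Their means there were 0.545 and 0.805 CPM. Where tested, such genes passed the filter through the P301S libraries alone. These counts and medians thus depended in part on the group where the genes were high. Mx1, a GTPase that traps virus particles, went from a mean of 4.16 to 35.7 CPM in microglia-like nuclei (log2 fold change 3.47 ± 0.62, edgeR adjusted p = 0.00103). Stat3, which signals for the interleukin-6 family, rose by 0.32 ± 0.08 in microglia-like (adjusted p = 0.00977) and 0.90 ± 0.15 in astrocyte-like nuclei (adjusted p = 0.00597). Of the negative regulators, Ptpn6 (the phosphatase SHP-1) rose in microglia-like nuclei, by 0.70 ± 0.18 (adjusted p = 0.00909), and Socs3 in astrocyte-like nuclei, by 4.54 ± 0.83 (adjusted p = 0.00597). Socs3 averaged 0.445 CPM there without the transgene. Its call too depended on the P301S libraries that brought it past the filter. Of the other receptor genes, Ifngr2, a chain of the interferon-gamma receptor, rose in microglia-like nuclei, by 0.47 ± 0.12 (adjusted p = 0.00909). None of the other JAK and IRF genes passed in any class here, and none of the 18 interferon ligand genes was abundant enough to be tested in this fit.

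The comparison of P301S Cgas+/+ (6 mice) with Cgas+/+ (5 mice), in which both groups have intact Cgas, shares these libraries and passed no member in any class. In microglia-like nuclei edgeR called 0 of 7 members (0% of 9310 genes), with 3 at an unadjusted p under 0.05 (15.6% of genes) and 2 called by DESeq2 (2.67% of genes). In astrocyte-like nuclei it called 0 of 8 (0.00758% of 13191 genes), with 5 at an unadjusted p under 0.05 (11.8%) and 4 called by DESeq2 (1.28%). In oligodendrocyte progenitor-like nuclei it called 0 of 7 (0.011% of genes), with 3 at an unadjusted p under 0.05 (7.01%) and 1 called by DESeq2 (0.243%). In oligodendrocyte-like (0.00795% of genes), excitatory neuron-like (0.0234%), inhibitory neuron-like (0.00778%) and endothelial cell-like nuclei (0%) it called 0 members, with 4, 2, 0 and 0 at an unadjusted p under 0.05 (6.72% and 2.33% of genes in the first pair of classes), and DESeq2 called 0 members. Of all genes, DESeq2 called 6, 12, 1 and 0 in these classes, in the same order. Log2 fold changes were close to those over all P301S libraries, at 3.57 ± 0.94 for Usp18 (edgeR adjusted p = 0.0979) and 1.44 ± 0.42 for Stat2 (adjusted p = 0.114) in microglia-like nuclei, and 1.20 ± 0.28 for Irf9 and 1.03 ± 0.27 for Stat2 (adjusted p = 0.213 each) in astrocyte-like nuclei. Irf9 and Irf7 in astrocyte-like nuclei were higher in each of the 6 P301S Cgas+/+ libraries than in each of the 5 Cgas+/+ libraries, as were 1.07% of the 13191 genes. In microglia-like nuclei no member separated in this way, beside 1.05% of the 9310 genes. Without P301S Cgas+/+ replicate 2, which held 3.39 CPM of Usp18 and 32.2 CPM of Stat2 in microglia-like nuclei, 2 members passed in that class and 1 in oligodendrocyte progenitor-like nuclei. The share of all genes called in these refits is not given here, so the counts are not a result about the members.

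**Figure D3:**
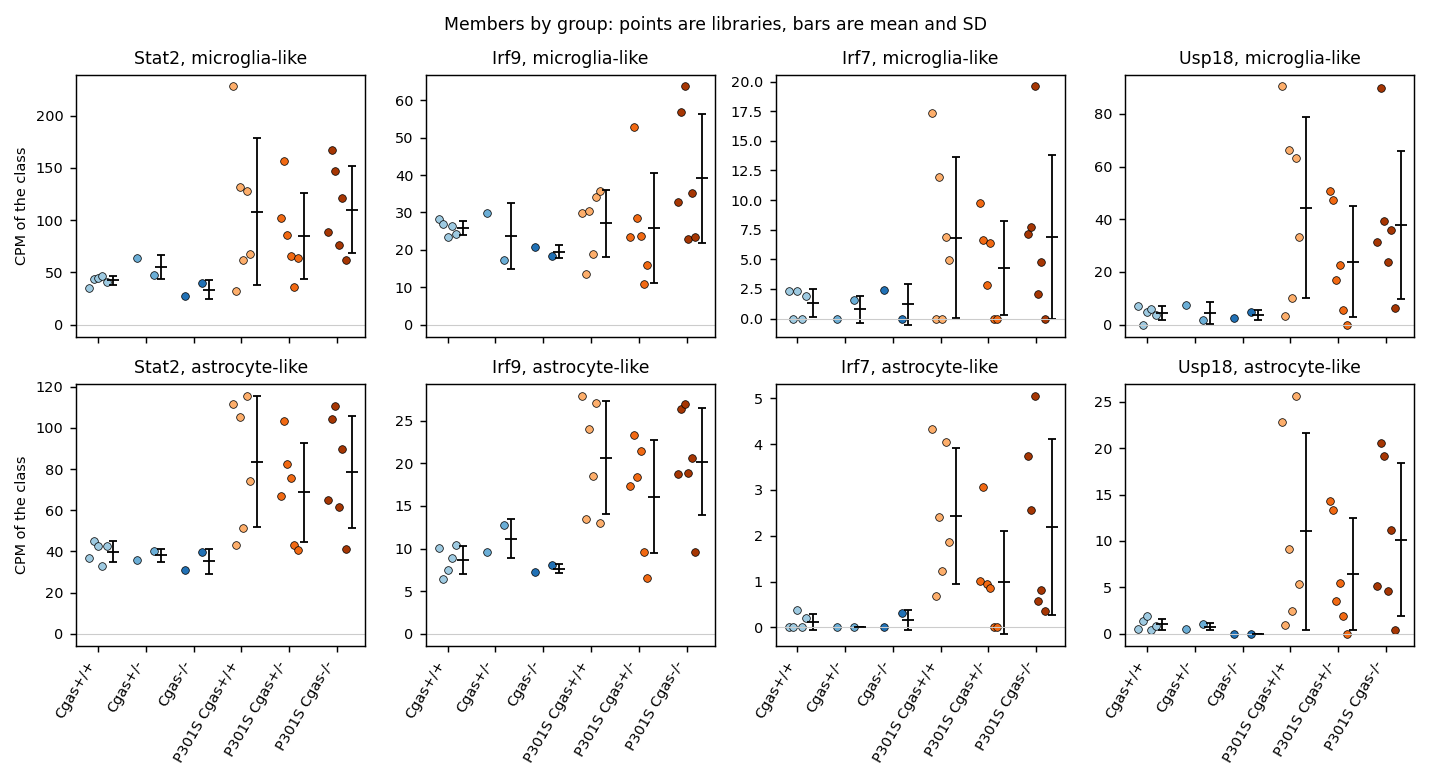
Levels of Stat2, Irf9, Irf7 and Usp18 in CPM (vertical axis, linear) in microglia-like nuclei (upper row) and astrocyte-like nuclei (lower row) in the 6 groups, with 1 point per library and the mean with bars of 1 SD beside them. The 3 groups without the transgene lie close together, and the 3 P301S groups overlap each other, with Usp18 in microglia-like nuclei from 3.39 to 90.4 CPM in P301S Cgas+/+, 0 to 50.8 CPM in P301S Cgas+/- and 6.39 to 89.8 CPM in P301S Cgas-/-.

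The next question was whether the members differ with the loss of Cgas in P301S mice. No member passed in P301S Cgas-/- against P301S Cgas+/+ in any of the 7 classes, by edgeR (0% of genes called in each class) or by DESeq2. Of all genes, DESeq2 called 124 of 17073 in excitatory neuron-like nuclei and 9 of 12852 in inhibitory neuron-like nuclei. It called 1 of 13191 in astrocyte-like nuclei and 0 in the other classes. Members at an unadjusted p under 0.05 numbered 1 of 7 in microglia-like nuclei (Ifnar2, beside 2.51% of genes), 2 of 7 in excitatory neuron-like nuclei (13.6% of genes) and 0 in the other classes. Usp18 in microglia-like nuclei averaged 44.4 ± 34.5 CPM in P301S Cgas+/+ (SD, n = 6), 23.9 ± 21.2 CPM in P301S Cgas+/- (n = 6) and 37.8 ± 28.0 CPM in P301S Cgas-/- (n = 6), and the 3 groups overlapped. Its log2 fold change was -0.42 ± 0.55 (SE) in P301S Cgas-/- (edgeR adjusted p = 1.0) and -1.02 ± 0.58 in P301S Cgas+/- (adjusted p = 1.0). Stat2 averaged 108 ± 70.5, 84.8 ± 41.5 and 110 ± 41.7 CPM in the same groups, with log2 fold changes of -0.06 ± 0.34 and -0.43 ± 0.34. The direction in P301S Cgas-/- was not stable: in males alone the log2 fold change was 0.22 for Usp18 and 0.16 for Stat2, and that of Stat2 ran from -0.26 (without P301S Cgas+/+ replicate 2) to 0.25 (without P301S Cgas+/+ replicate 1) with 1 library left out. A level of Usp18 lower by 2-fold lies within 2 SEs of both estimates.

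In astrocyte-like nuclei Usp18 averaged 11.1 ± 10.6, 6.43 ± 6.02 and 10.2 ± 8.26 CPM and Stat2 83.5 ± 31.8, 68.7 ± 23.9 and 78.7 ± 27.2 CPM in P301S Cgas+/+, P301S Cgas+/- and P301S Cgas-/-. The log2 fold changes in P301S Cgas-/- were -0.29 ± 0.71 for Usp18, -0.10 ± 0.24 for Stat2 and -0.36 ± 0.61 for Irf7 (edgeR adjusted p = 0.999 each). Among the other genes of the pathway none passed in this comparison, and the smallest unadjusted p-values in microglia-like nuclei belonged to Ifit2 (-0.98 ± 0.56), Mx1 (-0.77 ± 0.52) and Pias4 (0.26 ± 0.23; edgeR adjusted p = 1.0 each).

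Ifnar2 was the member with an unadjusted p under 0.05 in microglia-like nuclei. It lay between 79.6 and 221 CPM in P301S Cgas+/+ (median 153), between 102 and 271 CPM in P301S Cgas+/- (median 179) and between 164 and 253 CPM in P301S Cgas-/- (median 218). The groups overlapped, and the log2 fold change of 0.52 ± 0.18 in P301S Cgas-/- did not pass (edgeR adjusted p = 1.0 over 9310 genes). Without the transgene the 2 Cgas-/- libraries held 62.5 and 115 CPM and the 5 Cgas+/+ libraries 91.8 to 193 CPM. The interaction of P301S with Cgas-/- for Ifnar2, which sets these differences against each other, was 1.04 ± 0.35 and did not pass (adjusted p = 1.0).

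Jak1 in excitatory neuron-like nuclei rested on 3896 to 11708 UMIs per group. It lay between 70.8 and 87.8 CPM in P301S Cgas+/+ (median 76.0), between 58.9 and 69.7 CPM in P301S Cgas+/- (median 66.6) and between 60.7 and 71.3 CPM in P301S Cgas-/- (median 67.8). All 6 P301S Cgas+/- libraries were below all 6 P301S Cgas+/+ libraries, as for 0.0996% of 17073 genes. Neither difference passed the adjustment, at a log2 fold change of -0.30 ± 0.09 in P301S Cgas+/- (edgeR adjusted p = 0.206) and -0.26 ± 0.09 in P301S Cgas-/- (adjusted p = 0.224). Without the transgene the 2 Cgas-/- libraries averaged 81.5 CPM and the 5 Cgas+/+ libraries 77.5 CPM, and the interaction was -0.40 ± 0.15 (adjusted p = 0.143). In P301S Cgas+/- against P301S Cgas+/+, edgeR and DESeq2 called 0 members in each class. Of all genes, edgeR called 0.00778% in inhibitory neuron-like nuclei and 0% in the other classes. DESeq2 called 128 of 17073 genes in excitatory neuron-like nuclei, 5 of 12852 in inhibitory neuron-like nuclei and 0 in the other classes. Members at an unadjusted p under 0.05 were 1 in excitatory neuron-like nuclei (11.9% of genes) and 1 in oligodendrocyte-like nuclei (3.21%).

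**Figure D4:**
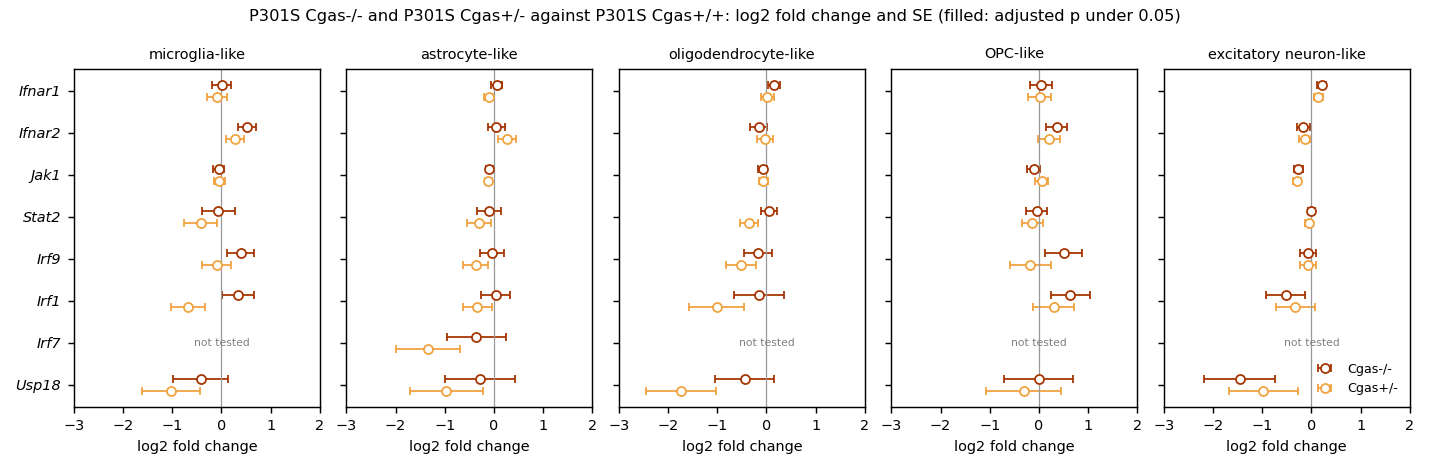
Log2 fold change of each member (horizontal axis) in P301S Cgas-/- (dark) and P301S Cgas+/- (light) against P301S Cgas+/+ in 5 classes of nuclei, with bars of 1 SE and open points where the adjusted p was 0.05 or more. All points are open, and the bars are widest for Usp18, with values of -0.42 and -1.02 in microglia-like nuclei, and narrow for Jak1, with -0.26 and -0.30 in excitatory neuron-like nuclei.

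Without the transgene, Cgas-/- (2 mice) was set against Cgas+/+ (5 mice), and edgeR and DESeq2 called 0 members in each of the 7 classes. Of all genes, edgeR called 0% in each class. DESeq2 called 56 of 17734 genes in excitatory neuron-like nuclei and 0 in the other classes. By edgeR 1 member had an unadjusted p under 0.05, in astrocyte-like nuclei (2.5% of genes). Usp18 was 2.45 and 4.98 CPM in microglia-like nuclei of the Cgas-/- libraries and 0 to 7.06 CPM in those of Cgas+/+, and Stat2 was 26.96 and 39.8 CPM against 35.3 to 46.9 CPM. The interaction of P301S with Cgas-/- passed for 0 members in each class by edgeR (0.186% of 17734 genes in excitatory neuron-like nuclei, 0% in the other classes) and by DESeq2. Of all genes, DESeq2 called 909 of 17734 in excitatory neuron-like nuclei and 21 of 13342 in inhibitory neuron-like nuclei. It called 5 of 13782 in astrocyte-like nuclei and 0 in the other classes. Unadjusted p-values under 0.05 were found for 3 of 8 members in excitatory neuron-like nuclei (18.9% of genes) and 1 of 8 in microglia-like nuclei (3.11% of genes). Among the other genes of the pathway, Stat5b passed this test in excitatory neuron-like nuclei.

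P301S libraries differed widely within each group, and the same libraries were high or low in several classes. Over the 18 P301S libraries, log2(CPM + 1) of Usp18 in microglia-like and in astrocyte-like nuclei had a Pearson r of 0.93 and a Spearman rho of 0.93 (permutation p = 1e-05 for each, the smallest that 100000 permutations can give; adjusted p = 0.000709 and 0.000871 over 8365 genes). For Stat2 r was 0.88 and rho 0.87 (permutation, adjusted p = 0.000709 and 0.00138). The median r over all 8365 genes was 0.28, and 13.3% had an adjusted p under 0.05. Within the groups P301S Cgas+/+, P301S Cgas+/- and P301S Cgas-/- of 6 libraries each, r was 0.94, 0.98 and 0.94 for Usp18 and 0.93, 0.80 and 0.97 for Stat2. Without the 2 libraries farthest from the median, r was 0.92 for Usp18 and 0.87 for Stat2. Irf9 (r = 0.70, rho = 0.66) and Irf1 (r = 0.67, rho = 0.69) passed as well (permutation, adjusted p of r = 0.0167 and 0.0231), and without those 2 libraries r was 0.60 and 0.63 and the adjusted p no longer passed (0.11 and 0.0808, permutation). Ifnar1 (0.10), Ifnar2 (-0.07) and Jak1 (-0.19) showed no such relation that passed. The values of both classes come from the same library and share its depth and free RNA.

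The same was computed for microglia-like with oligodendrocyte-like nuclei, where the median r over 8242 genes was 0.31 and 17.1% passed. Usp18 had r = 0.80 and rho = 0.83 there (permutation, adjusted p = 0.00118 and 0.001), and Stat2, Irf9 and Irf1 had r = 0.69, 0.69 and 0.61 (adjusted p = 0.0146, 0.0141 and 0.0474). The rho of Irf1 did not pass (0.59, adjusted p = 0.0633), and its r no longer passed with a pseudocount of 5 CPM (0.57, permutation, adjusted p = 0.0674) or without the 2 farthest libraries (0.45, adjusted p = 0.267). The libraries that stood low in Usp18 in both microglia-like and astrocyte-like nuclei were P301S Cgas+/+ replicate 2, P301S Cgas+/- replicate 6 and P301S Cgas-/- replicate 6, 1 from each P301S group.

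**Figure D5:**
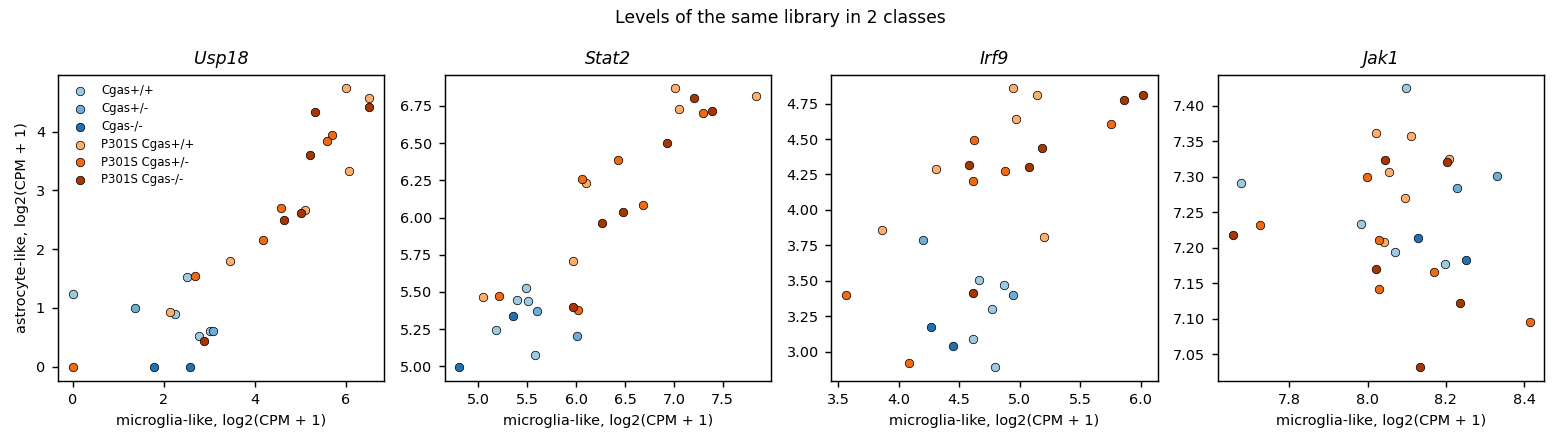
Level of Usp18, Stat2, Irf9 and Jak1 in microglia-like nuclei (horizontal axis) and astrocyte-like nuclei (vertical axis) of the same library, both as log2(CPM + 1), with 1 point per library coloured by group. The points of Usp18 and Stat2 rise together (r = 0.93 and 0.88 over the 18 P301S libraries), those of Irf9 less so (0.70), and those of Jak1 do not (-0.19).

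Across the 27 libraries, the genes whose log2(CPM + 1) in microglia-like nuclei was most like that of a member were listed by Pearson r among 9325 tested genes (9326 for Irf7), as a description. Stat2 was close to Xaf1 (0.92) and Rnf213 (0.91), and Usp18 was closest to Adar (0.93), Lag3 (0.90) and H2-Q4 (0.89). Irf7 was closest to Herc6 (0.87), Ddx60 (0.81) and Usp18 (0.81), Irf9 to Phf11a (0.80), Oas2 (0.79) and Tap1 (0.77), and Irf1 to Dtx3l (0.77), Phf11a (0.73) and Plekhf2 (0.72). Ifnar1 was closest to Cd274 (0.87), Rhbdf2 (0.87) and Fam46c (0.86), and Ifnar2 to Ctss (0.80), Ctsl (0.76) and Tmem181a (0.75), and Jak1 was close to Zfp560 (0.80) and Mbnl1 (0.72). The libraries share the contrast between P301S and no transgene, so any gene that differs between them takes part in these values.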

How the data were processed

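The authors made the deposited UMI counts with Cell Ranger 3.1.0, per the labels, from 10x Chromium 3' v3 libraries aligned to mm10 with pre-mRNA reads counted. File headers name 3.0.2 in 12 of 27 libraries. The annotation release is not given in the sources used here, and positions are from GENCODE vM21. Barcodes were filtered on 200 to 4000 detected genes and a mitochondrial share up to 5% (221281 passed), 16429 likely doublets were removed, and the rest were clustered without the 73 genes of the members' and pathway lists (Python 3.11.15, scanpy 1.11.5). Of 49 clusters 42 were named. Of 215041 barcode sequences 6129 occurred in more than 1 library. Counts were summed per library and class, leaving out libraries with under 10 nuclei, and tested in 7 classes with edgeR 4.0.16 (R 4.3.3, TMM, filterByExpr, robust quasi-likelihood fit, sex as covariate, Benjamini-Hochberg threshold 0.05). The fit of the 4 main groups held 23 libraries (19 for endothelial cell-like nuclei), and fits of all groups held 27 (23). DESeq2 1.42.0 was an alternative. Correlations used a pseudocount of 1 CPM. In simulated microglia-like counts, the comparison over all P301S libraries recovered 92 of 100 genes changed 2-fold, and P301S Cgas+/+ against Cgas+/+ 63 of 100, with 14 and 9 false calls. Only genes above a low mean count were changed, and each gene was drawn independently, unlike real libraries that move together. Comparisons between Cgas genotypes were not simulated. All 9 members are named. Of other pathway genes, examples of those that passed are named, otherwise those of smallest p, and some results are not reported here. Members and lists were chosen with earlier results of these data known. Replicates were numbered in accession order.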

Additional observations from a re-analysis of the deposited data

Results flagged for a closer look

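In 4 of the 76 groups of libraries examined, 1 library stood apart from the rest of its group by Dixon's criterion, where chance gives about 1 in 20 groups. Irf1 in astrocyte-like nuclei was 20.17 CPM in P301S Cgas+/+ replicate 3, with the next library at 11.53 CPM. Irf7 in astrocyte-like nuclei was 3.074 CPM in P301S Cgas+/- replicate 2, with the next at 1.023 CPM. Usp18 in oligodendrocyte progenitor-like nuclei was 32.2 CPM in the same library, with the next at 11.35 CPM. Ifnar1 in endothelial cell-like nuclei was 437.7 CPM in P301S Cgas-/- replicate 6, with the nearest at 313.0 CPM.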

How the results depend on the processing

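Counts of members called did not change by more than 1.5 times in 331 of 343 values under other settings and in 577 of 602 values with 1 library left out. Most of these counts were 0 in the main fits, and a 0 that stayed 0 was taken as unchanged. The totals therefore say little about the counts above 0. For P301S Cgas+/+ against Cgas+/+, 0 members became 2 by DESeq2 and 4 without the low-count filter in microglia-like nuclei (0 to 2 with 1 library left out), 4 by DESeq2 in astrocyte-like nuclei, and 1 by DESeq2 and 1 without the filter in oligodendrocyte progenitor-like nuclei (0 to 1). Over all P301S libraries, the 5 members of astrocyte-like nuclei became 3 without P301S Cgas+/- replicate 2 or P301S Cgas+/+ replicate 5 (3 to 5), where Irf7 was not tested and Irf1 did not pass, and the 3 of oligodendrocyte progenitor-like nuclei became 1 without P301S Cgas+/+ replicate 1, Cgas+/- replicate 1 or Cgas-/- replicate 2 (1 to 3) and 1 in males alone. The 0 of oligodendrocyte-like nuclei became 1 by DESeq2. The 1 of excitatory neuron-like nuclei became 0 without the sex term, with doublets kept or with the software version as a term, 4 in males alone, and 0 to 1 with 1 library left out. For P301S Cgas+/- against P301S Cgas+/+ in microglia-like nuclei, 0 became 1 without the filter. Apart from DESeq2, the shares of all genes called under these settings are not given here. The counts therefore describe the settings and are not a result about the members. In microglia-like nuclei of P301S Cgas-/- against P301S Cgas+/+, the log2 fold change of Usp18 was 0.22 in males alone, and that of Stat2 0.16 in males alone and -0.26 to 0.25 with 1 library left out. Without the 2 farthest libraries, r between microglia-like and astrocyte-like nuclei fell to 0.60 for Irf9 and 0.63 for Irf1, and that with oligodendrocyte-like nuclei to 0.45 for Irf1 (0.57 with a pseudocount of 5 CPM), and these calls were lost. Thinned to 2000 UMIs, which left 143 microglia-like nuclei in 5 of the 9 libraries without the transgene and 2757 in 17 of the 18 with it, the shares were 0.351% and 6.67% for Usp18 (1 and 210 nuclei) and 3.90% and 16.0% for Stat2 (6 and 490 nuclei). The cause was not tested. The software version and males-alone settings were chosen after seeing the data. No paired analysis was possible because the labels give no replicate numbers shared between groups. Precision is limited by 218 to 1206 microglia-like nuclei per library and by low counts of Irf7 and Usp18, and intervals cover the spread between libraries.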

Other observations

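T cell-like nuclei were too few for a test, at 10 or more nuclei in 11 P301S libraries (248 nuclei) and in 1 library without the transgene (12 nuclei). Jak1, the kinase shared by many cytokine receptors, lay between 381.6 and 1214 CPM in the 11 P301S libraries (mean 702 ± 239, SD; 176 UMIs in all). In microglia-like nuclei of all 27 libraries it lay between 200.8 and 339.9 CPM, so that the ranges of these classes did not overlap. The library without the transgene held 524.5 CPM, from 5 UMIs. Stat2 averaged 49.1 ± 41.2 CPM in the same 11 libraries, from 16 UMIs.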
